A study of Mus musculus with 6 samples.

Results

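The transcripts described here are those of the adult hemoglobin chains and of the first enzyme of heme synthesis in red cells, measured in mouse cerebellum where they are commonly read as a measure of residual blood. They are *Hba-a1*, *Hba-a2*, *Hbb-bs*, *Hbb-bt*, and *Alas2*, chosen by name through the gene identifiers of the deposited table. These are 5 of 53715 genes in the table, and all 5 passed the filter on low counts that left 16330 genes for the test. RNA-Seq was performed on whole cerebellum from 3 control and 3 *Slc39a8*-NSKO mice, which were males, C57BL/6 in the labels and C57BL/6J in the study's text, and 4 weeks old by the same text. The labels call the genotypes WT and slc39a8-KO. The study describes its knockouts as mice with floxed *Slc39a8* alleles and a Cre recombinase driven by the synapsin I promoter, which acts in neurons and can vary between brain regions, and it names mice with the floxed alleles alone as controls. The counts do not tell which control genotype was used. *Slc39a8* itself, the targeted transporter gene, averaged 3.60 ± 1.03 CPM in controls against 2.04 ± 0.138 CPM in *Slc39a8*-NSKO mice (± SD, n = 3 each), with no overlap between the genotypes (log2 fold change −0.83, standard error 0.237, edgeR adjusted p = 0.534). CPM are counts divided by the library size and scaled to a common total, here after edgeR's TMM scaling of the library sizes.

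Hemoglobin is a tetramer of alpha and beta chains, each with a heme group that binds oxygen. Red cell precursors make globin mRNA in very large amounts, and the young red cells that enter the blood still carry it, so that a tissue RNA sample that contains blood contains these transcripts. Some neurons and glia are also known to make globin mRNA at low levels, and the counts do not tell a blood source from a tissue source. ALAS2 joins glycine and succinyl-CoA in the first step of heme synthesis in erythroid cells, and its housekeeping relative ALAS1 does so in other cells.

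The alpha genes lie on chromosome 11, plus strand, of the GRCm38 build, with the minor globin gene *Hbq1b* between them, *Hba-a1* (ENSMUSG00000069919.7) from 32283511 to 32284465 and *Hba-a2* (ENSMUSG00000069917.7) from 32296489 to 32297298. The adult beta genes lie on the minus strand of chromosome 7, *Hbb-bs* (ENSMUSG00000052305.6) from 103826534 to 103828096 and *Hbb-bt* (ENSMUSG00000073940.3) from 103812524 to 103813996. *Alas2* (ENSMUSG00000025270.13) lies on the plus strand of the X chromosome from 150547375 to 150570638. In each globin pair the coding sequences of the GENCODE transcripts differed at 1 base only, counted from 1 at the A of the start codon. The difference was C381T from *Hba-a1* to *Hba-a2*, among 429 coding bases, and C417T from *Hbb-bs* to *Hbb-bt*, among 444. The 40 coding bases around each difference are shown because they are the part of the coding sequence that can tell the copies apart, with the differing base in capitals and positions 361 to 400 of the alpha and 397 to 436 of the beta sequences.
Hba-a1: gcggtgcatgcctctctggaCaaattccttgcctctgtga
Hba-a2: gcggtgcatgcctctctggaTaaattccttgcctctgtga
Hbb-bs: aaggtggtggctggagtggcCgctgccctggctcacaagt
Hbb-bt: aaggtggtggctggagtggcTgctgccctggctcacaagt

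Of the stretches of 150 bases, the length of 1 read, in the *Hba-a1* transcript, 48.4% also occurred in the *Hba-a2* transcript, and 65.7% of those in *Hba-a2* occurred in *Hba-a1*. For *Hbb-bs* and *Hbb-bt* the shares were 58.7% and 50.7%. The estimated counts of the 4 globins were fractions in each of the 6 mice, while the sum of *Hba-a1* and *Hba-a2* and the sum of *Hbb-bs* and *Hbb-bt* were whole numbers in each of the 6, within 0.011. Reads were therefore divided within each pair, and the values of single copies are less certain than the sum of a pair. *Alas2* showed the same arrangement with *Apex2*, a DNA repair gene on the opposite strand whose annotated exons cover 311 of the 2403 exonic bases of *Alas2* (12.9%). *Alas2* had a fractional count in 4 of the 6 mice and the sum of *Alas2* and *Apex2* was whole in each of the 6. Reads were therefore also divided between *Alas2* and *Apex2*, although they lie on opposite strands. The strand setting of the counting is not given in the sources used here, and reads from the shared bases cannot be told apart. *Apex2* averaged 6.65 ± 0.843 CPM in controls against 6.87 ± 1.03 CPM in *Slc39a8*-NSKO mice (± SD, n = 3 each).

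The promoters of the members are the 250 bases before the RefSeq start of each gene in GRCm38.p6. They are shown as a description of the genes, and their part in the levels of these mice was not tested. The *Hba-a2* window shares a run of 247 bases with that of *Hba-a1* and is not repeated. Capitals mark GATA, the core of the site of the erythroid factor GATA1, CACCC, the core of the site of KLF1, CCAAT, and TATAA, each searched on both strands, and neighboring matches can overlap.
Hba-a1, chr11:32283422-32283671, plus strand: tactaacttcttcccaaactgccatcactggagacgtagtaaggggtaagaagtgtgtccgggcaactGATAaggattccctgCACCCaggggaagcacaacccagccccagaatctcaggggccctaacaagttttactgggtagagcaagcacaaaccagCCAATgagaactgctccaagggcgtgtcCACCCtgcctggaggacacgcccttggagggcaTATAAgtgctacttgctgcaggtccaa
Hbb-bs, chr7:103827929-103828178, minus strand: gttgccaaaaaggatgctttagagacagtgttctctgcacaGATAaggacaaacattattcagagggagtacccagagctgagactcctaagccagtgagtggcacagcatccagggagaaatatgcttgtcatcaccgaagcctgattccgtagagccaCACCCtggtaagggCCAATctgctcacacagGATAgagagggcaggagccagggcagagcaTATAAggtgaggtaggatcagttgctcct
Hbb-bt, chr7:103813924-103814173, minus strand: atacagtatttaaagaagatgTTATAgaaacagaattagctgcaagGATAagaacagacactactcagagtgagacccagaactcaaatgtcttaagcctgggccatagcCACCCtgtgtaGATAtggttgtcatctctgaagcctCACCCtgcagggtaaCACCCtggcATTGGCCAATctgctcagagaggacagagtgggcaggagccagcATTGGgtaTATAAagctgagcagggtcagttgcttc
Alas2, chrX:150547167-150547416, plus strand: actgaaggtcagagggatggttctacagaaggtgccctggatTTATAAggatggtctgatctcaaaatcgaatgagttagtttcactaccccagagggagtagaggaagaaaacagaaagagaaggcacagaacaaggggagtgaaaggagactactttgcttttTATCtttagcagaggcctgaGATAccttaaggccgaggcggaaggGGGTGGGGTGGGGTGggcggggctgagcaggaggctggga

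The 4 globin windows held all 4 motifs, as did 2.15% of the 32851 promoters in the RefSeq table, and the TATAA match nearest to the start began between 27 and 30 bases before it. The *Alas2* window held GATA, CACCC, and TATAA but not CCAAT. Over all promoters GATA was in 53.6%, CACCC in 52.0%, CCAAT in 33.8%, and TATAA in 22.8%. A match is only a run of letters, and no binding was measured.

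The 6 libraries held between 14431245 and 20844248 counts on genes. Markers of the labelled tissue were high in all of them, such as *Calb1*, the calbindin of Purkinje cells, which averaged 1071 ± 17.1 CPM in controls against 1076 ± 71.3 CPM in *Slc39a8*-NSKO mice (± SD, n = 3 each). Mitochondrial transcripts made up between 4.71% and 5.65% of the counts of a mouse. No library stood apart in these totals. As in any bulk sample, fewer cells of a type and less RNA per cell cannot be told apart.

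None of the globins nor *Alas2* passed an adjusted p of 0.05 between the genotypes in edgeR's quasi-likelihood test, and their levels varied more from mouse to mouse within a genotype than between the genotypes. Together the 4 globin genes took 529, 446, and 232 CPM in control mice 1 to 3 and 346, 395, and 551 CPM in *Slc39a8*-NSKO mice 1 to 3. The lowest value was that of control mouse 3 and the highest that of *Slc39a8*-NSKO mouse 3, and the genotypes overlapped. The sum averaged 402 ± 153 CPM in controls against 431 ± 107 CPM in *Slc39a8*-NSKO mice (± SD, n = 3 each, p = 0.8 in a two-sided exact permutation over the mice, where 3 mice against 3 cannot give a p below 0.1). The difference of the mean log2 CPM was 0.15. Without control mouse 3 it was −0.20, and without *Slc39a8*-NSKO mouse 3 it was −0.04, so that its direction rests on 1 mouse of either genotype. In raw numbers the globins held between 3620 and 10981 counts in a mouse, which was between 0.0233% and 0.0553% of all counts, with the lowest in control mouse 3.

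**Figure D1:**
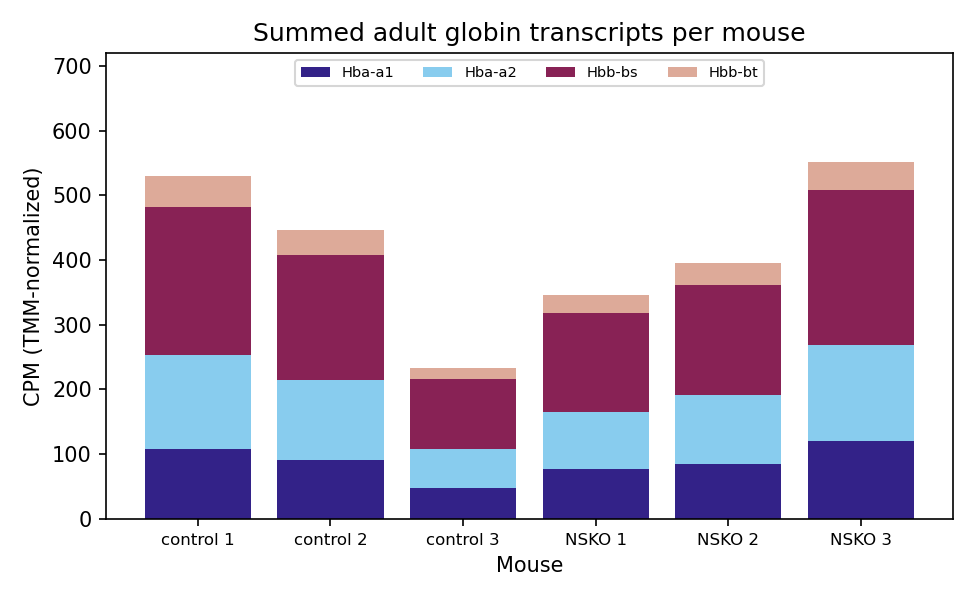
Bars show the CPM (vertical axis, from 0) of the 4 adult globin genes stacked for each of the 6 mice (horizontal axis). Control mouse 3 is lowest at 232 CPM, *Slc39a8*-NSKO mouse 3 is highest at 551 CPM, and the make-up of the bars is alike.

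*Hbb-bs*, which encodes an adult beta chain, had the highest level of the members. It was 230.1, 193, and 108 CPM in control mice 1 to 3 and 153, 170.4, and 240.7 CPM in *Slc39a8*-NSKO mice 1 to 3. The log2 fold change was 0.08 (standard error 0.209, 95% interval −0.37 to 0.53, edgeR adjusted p = 0.994). *Hbb-bt*, the other adult beta gene, was 46.7, 38.2, and 16.9 CPM in control mice and 28.5, 33.6, and 42.6 CPM in *Slc39a8*-NSKO mice. In both genes control mouse 3 was the lowest of the 6 mice, and the values of the genotypes overlapped. The log2 fold change of *Hbb-bt* was 0.03 (standard error 0.249, 95% interval −0.51 to 0.56, edgeR adjusted p = 0.998).

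*Hba-a1* and *Hba-a2* both encode the alpha chain. *Hba-a1* was 108, 91.3, and 47.6 CPM in control mice 1 to 3 and 76.2, 84.0, and 120.0 CPM in *Slc39a8*-NSKO mice 1 to 3. *Hba-a2* was 144, 123, and 59.8 CPM in control mice and 88.5, 107, and 148 CPM in *Slc39a8*-NSKO mice. The order of the mice was that of the beta genes at the low end, with control mouse 3 lowest, and the genotypes overlapped. The log2 fold changes were 0.17 for *Hba-a1* (standard error 0.221, 95% interval −0.30 to 0.65) and 0.07 for *Hba-a2* (standard error 0.237, 95% interval −0.45 to 0.58), with adjusted p = 0.994 and 0.995 from edgeR's quasi-likelihood test.

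*Alas2* had far fewer counts, with estimates of 95.5, 54, and 26 for controls 1 to 3 against 49.5, 59.5, and 74.6 for *Slc39a8*-NSKO mice 1 to 3. These were 4.63, 3.75, and 1.67 CPM in control and 2.45, 3.08, and 3.98 CPM in *Slc39a8*-NSKO mice. Control mouse 1 was highest and control mouse 3 lowest, so that the control values enclosed those of the other genotype. The means were 3.35 ± 1.52 CPM and 3.17 ± 0.769 CPM (SD, n = 3 each), and the log2 fold change was −0.10 (standard error 0.304, 95% interval −0.76 to 0.55, edgeR adjusted p = 0.994). The difference of the mean log2 CPM of *Alas2*, the measure used for the summed globins, was 0.017. The direction of the *Alas2* difference thus depended on the measure, with all mice included.

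**Figure D2:**
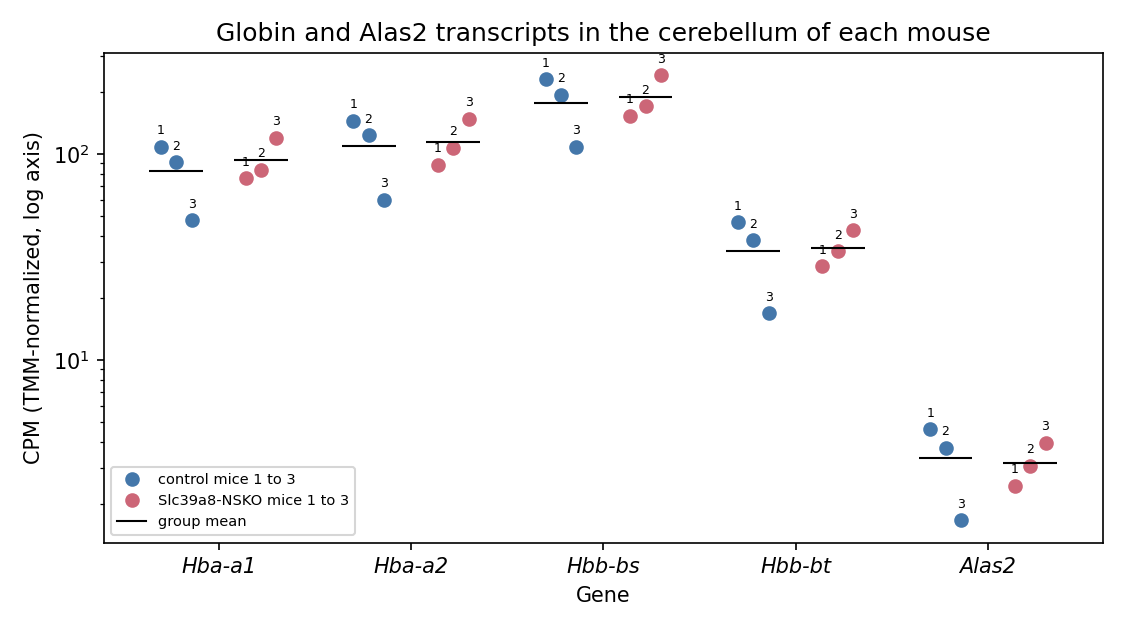
Points show the CPM of each gene (log axis) in the 3 control mice (blue) and the 3 *Slc39a8*-NSKO mice (red), numbered by mouse, and lines show the group means. In all 5 genes the genotypes overlap and control mouse 3 is lowest.

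Of the 5 genes 0 passed an adjusted p of 0.05, against 0.0980% of all genes tested in either direction and 0.0245% in the direction of higher levels in *Slc39a8*-NSKO mice. Of the 5, 0 had an unadjusted p below 0.05, against 5.39%. DESeq2 and limma-voom also called 0 of the 5. In 0 of the 5 did the values of the genotypes separate, against 10.3% of all genes tested. The median log2 fold change of the 5 was 0.07, and that of all genes tested was 0.0011. As folds, the 95% intervals ran from 0.774 to 1.44 for *Hbb-bs*, the narrowest, and from 0.592 to 1.47 for *Alas2*, the widest. Values within these limits were compatible with the data of these mice. Without control mouse 3 the log2 fold changes of the 4 globins were between −0.29 and −0.10 rather than above 0, and none passed the threshold.

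**Figure D3:**
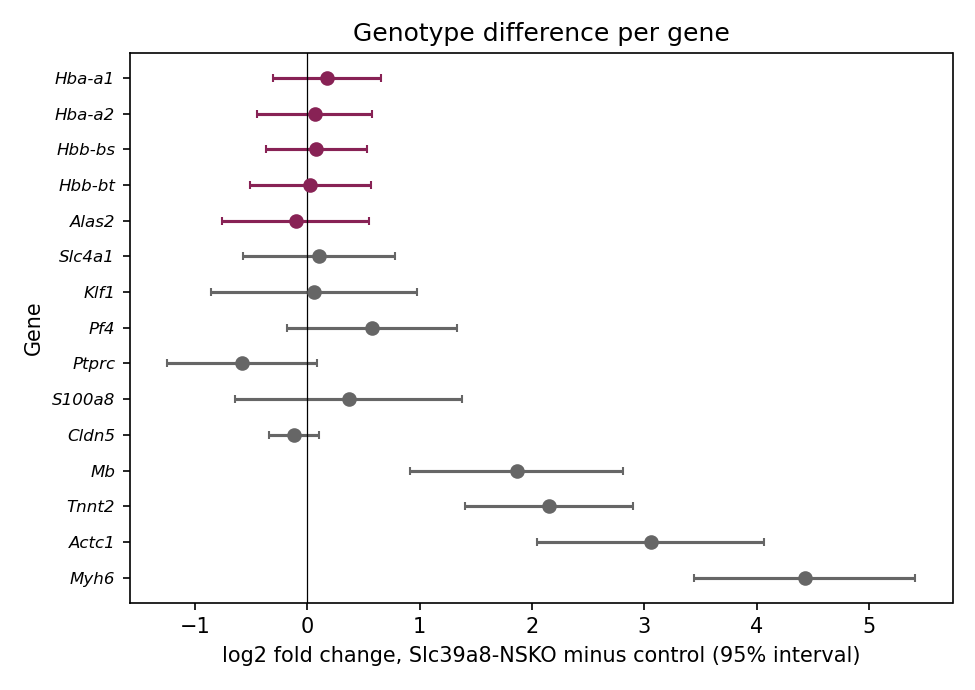
Points show the log2 fold change (*Slc39a8*-NSKO minus control) and bars its 95% interval from edgeR's fit, for the 5 members (dark red) and 10 genes of other lists (gray). The intervals of the 5 members include 0, and those of *Mb*, *Tnnt2*, *Actc1*, and *Myh6* do not.

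The proportions between the members varied much less than their amount. The summed globins differed 2.37-fold between the highest and the lowest mouse, while the ratio of the alpha pair to the beta pair differed 1.10-fold and stayed between 0.859 and 0.946. This ratio was 0.899 ± 0.0347 (SD, n = 3) in control and 0.931 ± 0.0196 (SD, n = 3) in *Slc39a8*-NSKO mice. The ratio of *Hba-a1* to *Hba-a2* was between 0.743 and 0.860 in a mouse, and that of *Hbb-bs* to *Hbb-bt* between 4.93 and 6.40, with the highest in control mouse 3. *Alas2* had between 7.08 and 8.74 counts for every 1000 globin counts. In exact two-sided permutation tests of the 4 log2 ratios the p values were between 0.2 and 1, and between 0.4 and 1 after Benjamini-Hochberg adjustment over the 4. Per kilobase of annotated exon, the mean level over the 6 mice was highest for *Hbb-bs* at 237.7 CPM, followed by *Hba-a2* at 168, *Hba-a1* at 108, *Hbb-bt* at 49.0, and *Alas2* at 1.36. The order of *Hba-a1* and *Hba-a2* depends on the annotated lengths and on how their reads were divided.

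**Figure D4:**
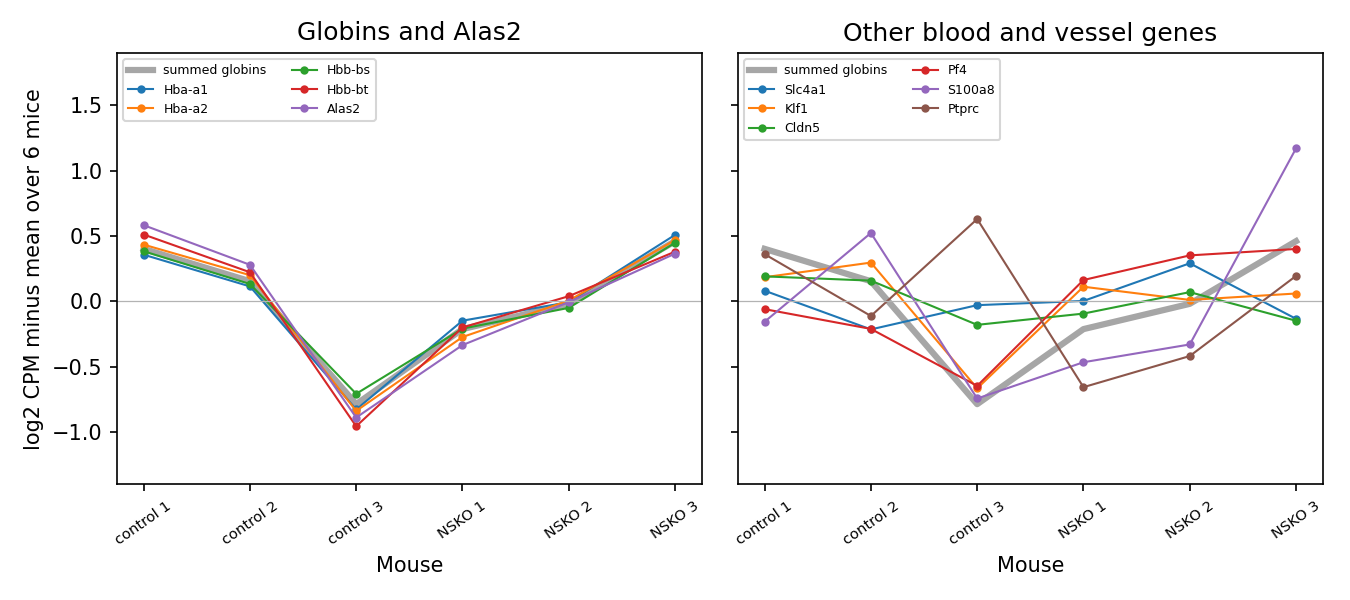
Lines show the log2 CPM of each gene minus its mean over the 6 mice (vertical axis) for each mouse (horizontal axis), with the summed globins in gray. At left the 5 members lie close to the gray line, with the lowest values in control mouse 3. At right the other genes depart from it by differing amounts. *Klf1*, *Cldn5*, *Pf4*, and *S100a8* are also lowest in control mouse 3, while *Slc4a1* and *Ptprc* are not.

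The closeness of these profiles was measured as the root mean square difference between a gene's log2 CPM and that of the summed globins, both centered on their means over the 6 mice. *Alas2*, which is not part of that sum, had a difference of 0.106, against a median of 0.438 over the 16326 genes ranked, which made it number 2. The next genes were *2510016D11Rik* at 0.123, *Gm49493* at 0.125, *Bvht* at 0.126, and *4833412C15Rik* at 0.135. These 4 genes were at or below 2.02 CPM in every mouse. The measure leans on control mouse 3. Without it, an alternative chosen after the data were seen, *Alas2* was number 59 of 16326 with a difference of 0.112. Genes ranked this way share their libraries with the globins, and with 6 mice a small difference is a description of these mice.

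The spread of the globins between mice of 1 genotype was large for genes of their level. The within-genotype SD of log2 CPM was 0.504 for *Hba-a1*, 0.547 for *Hba-a2*, 0.471 for *Hbb-bs*, and 0.585 for *Hbb-bt*, while its median was 0.0863 over the 10286 genes with a mean of at least 10 CPM. Among those genes *Hbb-bt* was number 14, *Hba-a2* number 17, *Hba-a1* number 24, and *Hbb-bs* number 27 in order of spread. The SD of *Alas2* was 0.579. In each of the 5 genes the SD was larger among control mice, between 0.571 and 0.774, than among *Slc39a8*-NSKO mice, between 0.291 and 0.374. Control mouse 3 was the lowest mouse in all 5 genes, and the genes moved together, so these are not 5 independent comparisons. The difference in SD between the genotypes was not tested.

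**Figure D5:**
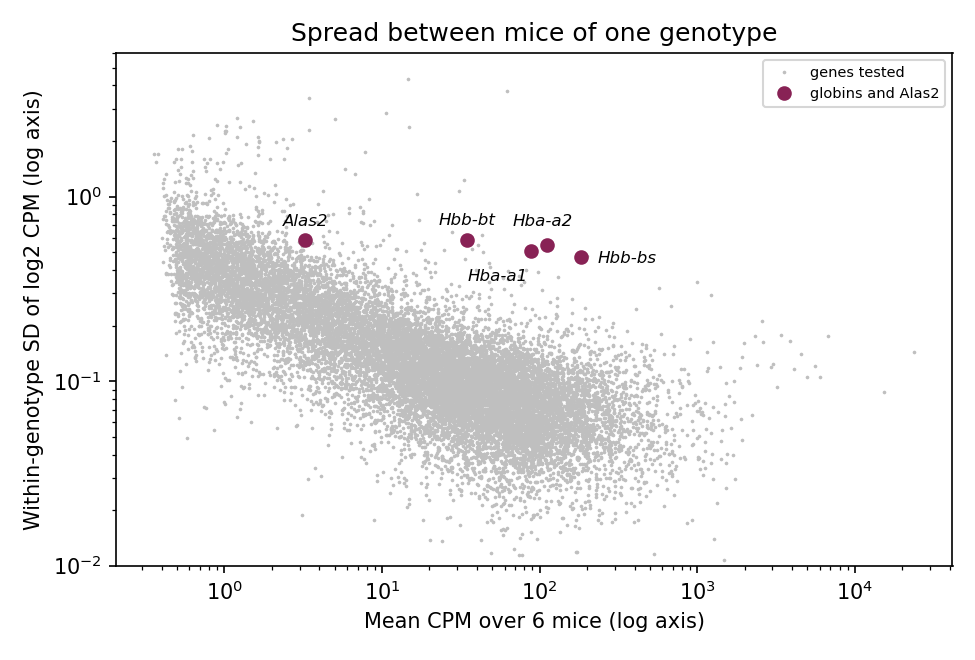
Each gray point is 1 of the 16330 genes tested, with its mean CPM over the 6 mice (horizontal log axis) and the within-genotype SD of its log2 CPM (vertical log axis). The 4 globins (dark red) lie between 0.471 and 0.585, above most genes of their level, and *Alas2* lies at 0.579.

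Other globins and other genes of red cells were measured alongside. Of the 6 embryonic and minor globins, *Hbb-y*, *Hbb-bh1*, *Hbb-bh2*, and *Hba-x* had 0 counts in every mouse, a reading that leaves room for up to 3 counts per mouse, and *Hbq1a* and *Hbq1b* had at most 3. *Cygb*, the cytoglobin of fibroblast-like cells and some neurons, averaged 75.3 ± 5.71 CPM in controls against 78.7 ± 3.09 CPM in *Slc39a8*-NSKO mice (± SD, n = 3 each, log2 fold change 0.06, edgeR adjusted p = 0.994). *Ngb*, the neuroglobin, had between 4 and 17 counts in a mouse. *Mb*, the myoglobin of heart and skeletal muscle, was counted 8.63, 4, and 2 times in controls 1 to 3, against 20, 23, and 20 times in *Slc39a8*-NSKO mice 1 to 3. Its log2 fold change was 1.86 (standard error 0.439), and it did not pass after adjustment (edgeR adjusted p = 0.271).

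Of 30 genes of the red cell membrane and cytosol, 29 were found in the table and 18 were tested, and of these 0 passed the threshold and 1, *Gypc*, had an unadjusted p below 0.05. *Rhag*, *Kel*, *Car1*, *Hemgn*, *Trim10*, and *Trim58* had at most 3 counts in every mouse. *Slc4a1*, the anion exchanger of the red cell membrane, was counted 23, 13, and 16 times in controls 1 to 3, against 21, 25, and 18 times in *Slc39a8*-NSKO mice 1 to 3. Its profile was 0.460 from that of the globins by the measure above, number 10767 of 16326. Its level in control mouse 3, 1.03 CPM, was within the range of the other mice. The highest of the list were *Ank1*, *Sptb*, and *Epb41*, membrane skeleton genes at 398 to 533 CPM in the group means, and *Prdx2*, a peroxidase, all of which neurons also express. The sum of the list varied 1.04-fold between mice.

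Of 13 erythroid transcription factors and receptors 10 were tested and 0 passed, also at an unadjusted p of 0.05. *Gata1* and *Gfi1b* had 0 counts in every mouse, and *Klf1* had between 5 and 12. *Klf1* was lowest in control mouse 3, at 0.321 CPM. Its profile was 0.259 from that of the globins by the measure used for *Slc4a1*, number 117 of 16326. Without control mouse 3 it was number 4779. *Kit*, *Ldb1*, *Zfpm1*, and *Tfrc*, the transferrin receptor, had the highest levels. *Tfrc* averaged 106 ± 4.18 CPM in controls against 114 ± 2.46 CPM in *Slc39a8*-NSKO mice (± SD, n = 3 each, log2 fold change 0.11, edgeR adjusted p = 0.931). Of 26 genes of heme synthesis, transport, and breakdown, 24 were tested and 0 passed, also at an unadjusted p of 0.05, with a median log2 fold change of 0.01. The summed level of that list was between 2908 and 3012 CPM in control and between 2765 and 2889 CPM in *Slc39a8*-NSKO mice, without overlap, the lists' only sum to separate the genotypes, and it was not tested. Of single genes tested, 10.3% also separated. The sum leans on its highest genes. *Fth1* averaged 1215 ± 35.9 CPM in controls against 1157 ± 62.1 CPM in *Slc39a8*-NSKO mice, and *Lrp1* 719 ± 12.3 against 673 ± 24.3 CPM (± SD, n = 3 each). *Alas1*, the housekeeping counterpart of *Alas2*, was between 39.0 and 41.8 CPM among controls and between 38.1 and 42.5 CPM among *Slc39a8*-NSKO mice. *Fech*, which inserts iron into protoporphyrin to make heme, was 49.5 ± 3.20 and 50.4 ± 2.19 CPM (SD, n = 3 each). The iron storage genes *Fth1* and *Ftl1*, the heme transporter gene *Slc48a1*, and *Lrp1*, a receptor for heme bound to hemopexin, had the highest levels of that list, with log2 fold changes between −0.09 and −0.01. *Lrp1* had its 3 *Slc39a8*-NSKO values below its 3 control values without passing (edgeR adjusted p = 0.968).

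Genes of other blood cells and of vessels did not pass the threshold either. In the lists of 25 leukocyte, 13 platelet, 20 endothelial, and 16 mural and meningeal genes, 6, 5, 20, and 15 genes were tested and 0 passed with edgeR, DESeq2, or limma-voom. At an unadjusted p below 0.05 by edgeR, 0 leukocyte and 0 platelet genes, 2 endothelial genes, of which 1 was higher and 1 lower, and 2 mural and meningeal genes, both higher, were found. The summed level was between 9.95 and 13.5 CPM in control and 11.5 and 15.4 CPM in *Slc39a8*-NSKO mice for leukocyte genes, of which *Cd74*, *Ptprc*, *S100a9*, and *H2-Aa* were highest. Control mouse 3, the lowest in globins, was also the lowest in this sum. Of these highest genes only *H2-Aa* was lowest there, at 0.385 CPM, and *Ptprc* was highest of all mice there, at 2.44 CPM. *Cd74* was lowest in control mouse 2 and *S100a9* in control mouse 1. For platelet genes it was between 17.5 and 21.2 CPM and between 20.9 and 23.4 CPM, with *Gp1bb*, *Itgb3*, *Itga2b*, and *Pf4* highest, and control mouse 3 had the highest platelet sum of the controls. Much of that sum was *Gp1bb* alone, at 9.78, 13.3, and 14.1 CPM in controls 1 to 3, and the controls ranked as they did in this gene. The estimated counts of *Gp1bb* were fractions. In the endothelial and in the mural and meningeal sum control mouse 3 was second lowest, after *Slc39a8*-NSKO mouse 1. The sum of the endothelial list, led by *Bsg*, *Slc2a1*, *Pltp*, and *Itm2a*, varied 1.13-fold between mice, and that of the mural and meningeal list, led by *Rgs5*, *Vtn*, *Col1a2*, and *Notch3*, varied 1.20-fold. *Cldn5*, a tight junction gene of brain endothelium, averaged 23.5 ± 3.20 CPM in controls against 21.6 ± 1.74 CPM in *Slc39a8*-NSKO mice (± SD, n = 3 each). The 2.37-fold range of the globins was wider than that of the summed level of any of these 4 lists, at most 1.55-fold, and what part the amount of blood, vessels, or cells had in it was not tested.

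Among the genes of all lists, 3 heart muscle genes passed the threshold in the same fit. *Myh6*, *Actc1*, and *Tnnt2* passed among the 10 of 16 heart muscle genes tested, with log2 fold changes from 2.15 to 4.43. *Myh6*, the alpha cardiac myosin heavy chain, was counted 0, 4, and 6 times in controls 1 to 3, where the globins had 10981, 6420, and 3620. In *Slc39a8*-NSKO mice 1 to 3 it was counted 73.8, 92.9, and 91 times, where the globins had 6917, 7712, and 10391. When the log2 summed globin level was added to the fit as a covariate, 18 genes passed in place of 16, of which 13 were shared, and *Myh6*, *Actc1*, and *Tnnt2* were among them. The summed globins overlapped between the genotypes with close means, so such a covariate can account for little of a genotype difference. What part blood had in the levels of the heart muscle genes was not tested. Over the 6 fits that omitted a mouse, *Myh6* passed in all 6, *Actc1* in 4, and *Tnnt2* in 1, that without control mouse 2. The summed level of the heart list, led by *Ryr2* and *Mybpc3*, was lowest in control mouse 3 at 269 CPM and highest in control mouse 2 at 309 CPM.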

How the data were processed

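Cerebellar RNA of 6 mice, 3 of each genotype, was sequenced, for which the study's methods describe oligo-dT cDNA, paired-end reads, and alignment with STAR. The values deposited by the authors are expected counts per gene and mouse, that is estimated read counts that need not be whole, not scaled to library size or to gene length. The submitters' processing notes also name FastQC, RSEM, and DESeq2 and the build mm10. Versions and the use of strand are not given in the sources used here. Paralogs share reads through this estimate. The authors' reference is not given in full, so positions and lengths are those of GENCODE M21 for GRCm38, in which 53620 of the 53715 genes were named. The 92 spike-in rows, with at most 5 counts in a mouse, were left out.

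Counts were rounded and tested in R 4.3.3 with edgeR 4.0.16 (filterByExpr, TMM, glmQLFit, and glmQLFTest, no covariate, Benjamini-Hochberg adjustment over 16330 genes, threshold 0.05). Log2 CPM for spread and likeness used a prior count of 2. Sums and ratios were compared by exact permutation over mice. The alternatives used DESeq2 1.42.0, limma 3.58.1 (voom), other normalizations and filters, unrounded counts, summed pairs, the members left out of the library sizes, the replicate number as a block, and each mouse left out. The tests were tried on simulated data. The precision is limited by 3 mice per genotype and, for rare transcripts, by counting error.

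The members, the gene lists, and the rule for named genes were chosen with earlier results of these data known. Named were the 5 members, *Slc39a8*, the listed genes past the threshold, the 4 highest genes of each list, and the 5 genes with the profile most like the summed globins, of which 1, like some listed genes, is not reported here. *Apex2*, *Slc4a1*, *Klf1*, *Cldn5*, *S100a8*, *Gypc*, *Alas1*, *Fech*, *Ccr2*, *Clec1b*, *Tubb1*, *Ppbp*, *Gp9*, and genes given as at most 3 counts are not named by that rule, and their values were known when they were picked. *Ahsp*, 1 gene of the lists, was not matched. GEO's labels name the samples as separate replicates and the methods as separate mice.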

Additional observations from a re-analysis of the deposited data

How the results depend on the processing

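None of the 5 members passed the threshold in any alternative, with adjusted p values from 0.437 upward. The lowest was that of *Hba-a1* in edgeR's fit with no filter (log2 fold change 0.18). In that fit the standard errors of the globins were between 0.0605 and 0.0815, against 0.209 to 0.249 in the main fit. The width of the intervals thus depended on the filter. Each globin had 16 alternatives and *Alas2* had 15. Of the 79 results, each for 1 gene under 1 alternative, 69 kept the direction. These results are not independent, because the genes share fits, and with summed pairs both copies have the same value. The other 10 each left out 1 mouse. Over the fits that left out 1 mouse the log2 fold change ranged between −0.10 and 0.43 for *Hba-a1*, −0.22 and 0.33 for *Hba-a2*, −0.17 and 0.32 for *Hbb-bs*, −0.29 and 0.35 for *Hbb-bt*, and −0.41 and 0.24 for *Alas2*. For the 4 globins the direction turned without control mouse 3, at the lower limits above, and with the third *Slc39a8*-NSKO mouse left out (−0.05, −0.16, −0.14, and −0.14 in the order above), and for *Alas2* without control mouse 1 (0.24) and *Slc39a8*-NSKO mouse 1 (0.055). The difference of the summed globins was between −0.20 (without control mouse 3) and 0.39, and −0.04 without the third *Slc39a8*-NSKO mouse. The log2 ratio of *Hbb-bs* to *Hbb-bt*, −0.02 with all mice, was between −0.089 and 0.10, turning without control mouse 3 (0.10) and *Slc39a8*-NSKO mouse 2 (0.02). The number of genes past the threshold, 16, was 37 with DESeq2, 178 with no filter, and between 9 (without *Slc39a8*-NSKO mouse 2) and 38 (without control mouse 1) with a mouse left out. Of genes on the lists 3 passed, against 1 with limma-voom, 8 with no filter, 0 where every mouse had at least 10 counts, and between 1 and 3 with a mouse left out, the 1 without *Slc39a8*-NSKO mouse 1 or 2. With the filter of 10 counts, which removes *Myh6*, *Actc1*, and *Tnnt2* before the test, 6 listed genes had an unadjusted p below 0.05. Fitting the replicate number as a block gave 41 genes past the threshold and the same count of 3 listed genes, and it called 0 of the members. The deviations of mice with the same number correlated at 0.142, 0.116, and 0.0104, each above any correlation with another number in the first pairs but not in the third, so the numbers were not treated as pairs. The causes of these changes were not tested. *Alas2*, at 26 to 96 counts, had fewer counts than any of the globins. Its standard error was the largest of the 5 members with edgeR (0.304) but the smallest with DESeq2 (0.342).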

Other observations

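Some genes of blood cells outside the members separated by genotype without passing the threshold. The values of 10.3% of all genes tested separated. *Gypc*, a glycophorin of the red cell membrane, was counted 24, 10, and 5 times in controls 1 to 3, against 33, 33, and 22 times in *Slc39a8*-NSKO mice 1 to 3 (log2 fold change 0.996, edgeR adjusted p = 0.867). *Pf4*, a chemokine of platelets, averaged 0.660 ± 0.132 CPM in controls against 0.996 ± 0.0846 CPM in *Slc39a8*-NSKO mice (± SD, n = 3 each), and *Itga2b* and *Itgb3*, the integrin chains of platelets, were also higher in every *Slc39a8*-NSKO mouse (edgeR adjusted p between 0.989 and 0.994 for *Pf4* and these). Of the 13 platelet genes, 5 were higher and 2 lower in every *Slc39a8*-NSKO mouse, and the other 6 overlapped. Only 5 of the 13 passed the filter on low counts, and the 10.3% covers tested genes only. Among the higher ones, *Ppbp* and *Gp9* were below that filter. *Ppbp* had 0 counts in every control against 2, 2, and 1 in *Slc39a8*-NSKO mice 1 to 3. *Gp9* had 4, 3, and 0 against 10, 9, and 4, and its nearest values were 0.208 CPM (control mouse 2) and 0.212 CPM (*Slc39a8*-NSKO mouse 3). The 2 lower were *Clec1b*, counted 2, 3, and 2 times in controls 1 to 3, and *Tubb1*, counted 1, 3, and 1 times, both at 0 in the *Slc39a8*-NSKO mice and below the filter on low counts. *Ccr2*, a chemokine receptor of monocytes chosen after its values were seen, was counted 1, 1, and 2 times in controls 1 to 3, against 7, 13, and 8 times in *Slc39a8*-NSKO mice 1 to 3, and was below the filter on low counts. In genes picked because every *Slc39a8*-NSKO value was higher, the lowest mouse has to be a control. Control mouse 3, the lowest in globins, was the lowest of the 6 mice in CPM of *Gypc*, *Pf4*, and *Itga2b*. In *Itgb3* it was instead the highest of the controls, at 4.62 CPM.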
